A study of Homo sapiens with 27 samples.

Results

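The cells were DU145-DR, the DR subline of DU145, an established human prostate cancer line grown from a metastasis. Their transcripts were read by RNA sequencing in 9 libraries, which are 9 of the 27 in the series. The 9 libraries were taken by the line and hairpin in their labels. In 3 libraries the cells carried a control short hairpin RNA, which the design text calls random (Control). In 3 they carried a first hairpin against GATA2 (shGATA2a) and in 3 a second one (shGATA2b). A short hairpin RNA is processed into a small RNA that lowers the transcript it matches. The labels class all 27 libraries as Ch-CRPC, a chemotherapy-resistant form of castration-resistant prostate cancer in the study's usage, and the suffix DR is taken to mean docetaxel resistance, which they do not spell out. All 9 libraries therefore share the resistant background and the presence of a hairpin. The groups differ in the hairpin. The sources used here do not give the hairpin sequences, the vector, the time after its introduction or whether cells were cloned. The labels number the libraries 1 to 3 in each group and do not name them as separate cultures. Each limma p-value here, unless the block is said to be left out, rests on the spread among 3 libraries per group that remains after the replicate block. The block takes out shifts shared by same-numbered libraries. In limma that spread is also drawn toward a trend over all genes. The spread may therefore be technical. The other 18 libraries carried the same 3 hairpins in 22Rv1-DR and ARCaPM-DR, with 3 libraries in each group, and enter in the last comparison only.

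GATA2 is a zinc finger transcription factor that binds the letters GATA in enhancers and promoters. It is best known for its role in blood stem cells and their progeny. In the prostate it also acts on chromatin as a regulator of gene expression. In this study it was examined as a regulator of the growth factor IGF2, which signals through the receptors IGF1R and INSR to PI3K.

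Values are deposited normalised read counts. Apart from a few values described with GATA2, each is a whole number of reads divided by a size factor of the library, and levels of different genes are not comparable because gene length was not divided out. Recovered depth ran from 8.08 to 16.97 M reads, with a median of 13.2 M. A listing at 0 allows up to 3 reads in that library (95% limit, counting error only). The first principal component of the 9 libraries held 38.3% of the variance and put the Controls (scores 19.4 to 30.9) apart from the hairpin libraries (-22.4 to 4.64). The nearest hairpin library to the Controls was shGATA2b replicate 2. The second component, with 22.0%, separated replicate 3 of every group from replicates 1 and 2. Same-numbered libraries deviated together from their group means (lowest of 9 correlations 0.275), and the replicate number was therefore a block in the model.

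**Figure D1:**
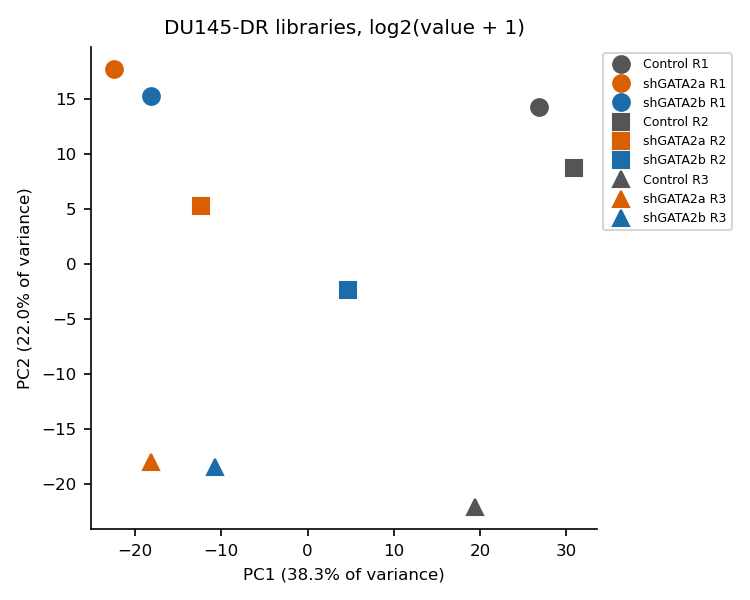
Scores of the 9 DU145-DR libraries on the first (horizontal) and second (vertical) principal component of log2(value + 1), unitless. Colour gives the hairpin and shape the replicate number. Controls lie to the right at 19.4 to 30.9, shGATA2b replicate 2 at 4.64 is the hairpin library nearest to them, and the 3 libraries of replicate 3 lie lowest.

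The label was checked against markers of the line. Transcripts of the luminal keratins KRT8 (4949.8 ± 1424, SD, n = 3 Controls) and KRT18 (1608 ± 180.4) were abundant. KRT19 (41.7 ± 21.4) and EPCAM (77.7 ± 7.91), both epithelial genes, were detected. CDH1, the epithelial cadherin that parental DU145 cells are known to express, was at most 3.45 in any library, so this marker was close to absent. KLK3, which encodes prostate-specific antigen, was listed at 0 in all 9. KRT8, KRT18, KRT19 and EPCAM did not pass in the knockdown comparison (adjusted p 0.0583 to 0.467 by limma).

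GATA2, the target of both hairpins, was lower in every hairpin library than in any Control. Control replicates 1, 2 and 3 held 1255, 1135 and 925. The shGATA2a libraries held 225, 334 and 288 in the same order, and the shGATA2b libraries 266, 385 and 346. The groups did not overlap, and the log2 fold change of both hairpins together against Control was -1.85 (SE 0.10, adjusted p = 9.5e-12 by limma with the replicate block). An exact two-sided permutation test of the 6 hairpin against the 3 Control libraries gave p = 0.0119, the smallest that this design allows. A property of the table touches this gene. Within a tolerance of 0.005 reads, 99.972% of DU145-DR values above 0 were whole numbers of reads, but 41 values in 17 genes were not, 27 of them in Controls. GATA2 has 5 of these, including all 3 Controls. Taking round amounts of 300, 200 and 200 off the 3 Control values made them whole. This step, added after inspection of the values, gave 871 ± 127 (SD, n = 3) against 307 ± 58.6 (n = 6) and a log2 difference of -1.51 with the same permutation p. The GATA2 values of shGATA2a replicate 1 and shGATA2b replicate 2 are also not whole. They had no such amount assigned and stayed as deposited in that step. The groups did not overlap after that step either, and the difference was smaller. The sources used here do not say how such values arose.

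Other genes at the centre of the study followed a mixed course. IGF2, the ligand, was at 126, 158 and 92.5 in Controls, at 15.97, 27.2 and 18.5 with shGATA2a and at 26.7, 12.1 and 23.4 with shGATA2b, but 7 of these 9 values, including all 3 Controls, are not whole. Control replicate 1 became whole at 26.1 when 100 was taken off, a level inside the range of the hairpin libraries. Taking 100 off did not make Control replicate 2 whole, and Control replicate 3, at 92.5, is below 100. Round amounts other than multiples of 100 were not tried. No direction is therefore drawn for IGF2. FOXM1, a transcription factor of mitotic genes, held 1240.4, 1631 and 1509.9 in Controls and 831 ± 166 (n = 6) with hairpins, a log2 fold change of -0.83 (SE 0.07, adjusted p = 7.1e-09). All 3 of its Controls are not whole, and with offsets of 200, 500 and 100 removed the difference was -0.54 (exact permutation p = 0.0476) and the groups overlapped. POM121, a nuclear pore protein whose near-identical copy POM121C makes its count uncertain, went from 653 ± 123 to 346 ± 83.3 (-0.94, SE 0.10), with 1 of its 9 values not whole. IGF1R (-0.11, SE 0.07, adjusted p = 0.219) and INSR (0.01, SE 0.09, adjusted p = 0.939) did not pass. Of 23 tested genes of IGF and insulin receptor signalling, 7 rose and 5 fell by the test, IGF2 among the latter, with a median log2 fold change of 0.02. IGFBP5, an IGF binding protein, rose from 6.90 ± 2.26 to 25.4 ± 13.3 (1.67), while PIK3R2, a regulatory subunit of PI3K, fell by 0.70. Of 14 tested GATA factors and partners, 0 rose and 4 fell: GATA2, the related factor GATA4 (-0.37), the cofactor ZFPM1 (-0.36) and the bridging protein LDB1 (-0.20). ZFPM1 and LDB1 did not pass with a correction for GC content described below, nor without the replicate block. GATA3 (-0.53, adjusted p = 0.197) and GATA6 (0.16, adjusted p = 0.15) did not pass.

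Over all 13362 genes tested, 2622 (19.6%) rose and 2562 (19.2%) fell, 38.8% together, at an adjusted p of 0.05. Most changes were small. The median size among called genes was 0.36 on the log2 scale, and 87 rose and 66 fell by at least 2-fold (1.15% of genes tested). Without the replicate block 1165 genes rose (8.72%) and 1066 fell (7.98%), 2231 (16.7%) together, all of them among the 5184 and in the same direction. All 6 hairpin libraries lay above all 3 Controls for 10% of genes and below for 8.74%. Against the same Controls, 2612 genes rose (19.5%) and 2477 fell (18.5%) with shGATA2a, 38.1% together, and 1736 rose (13%) and 1779 fell (13.3%) with shGATA2b, 26.3% together. The shares of 19.6% up and 19.2% down are the background for each count of list members below. Leaving out Control replicate 1 lowered the count to 2670, and 2388 genes passed without any 1 library.

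**Figure D2:**
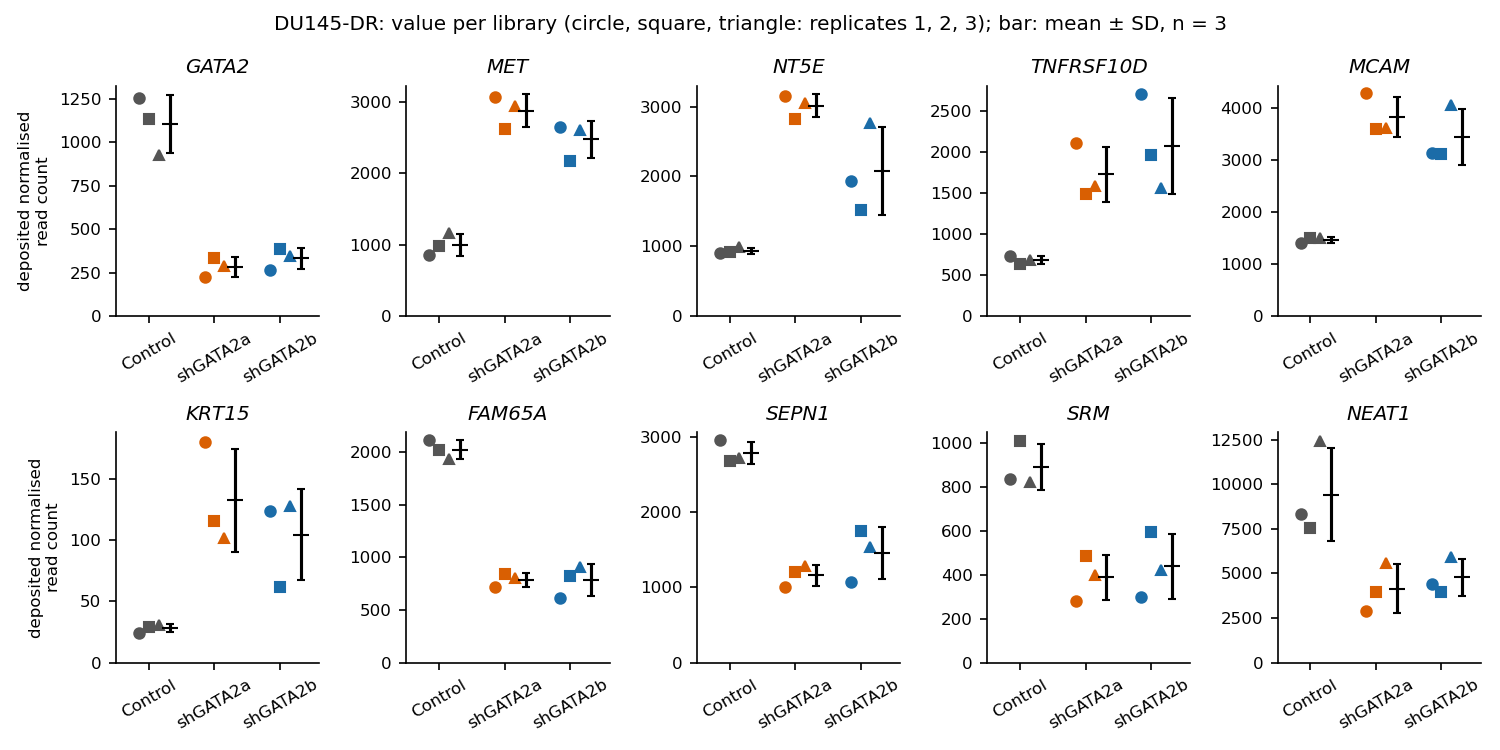
Deposited normalised read count (vertical axes, from 0) of 10 genes in each of the 9 DU145-DR libraries. Circles, squares and triangles are replicates 1, 2 and 3, and bars give the mean ± SD of 3 libraries. In all 10 genes the hairpin libraries lie wholly above or wholly below the Controls: MET, NT5E, TNFRSF10D, MCAM and KRT15 are higher, and GATA2, FAM65A, SEPN1, SRM and NEAT1 lower.

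The 15 genes with the largest rise, a mean of at least 50 and groups that did not overlap are described first. MET, the receptor of hepatocyte growth factor, held 855, 979.5 and 1162 in Controls, 3068, 2622 and 2942 with shGATA2a and 2642, 2167 and 2606 with shGATA2b. The lowest hairpin library held nearly 2 times the highest Control, and the log2 fold change was 1.42 (SE 0.08, adjusted p = 7.1e-12). NT5E, the ectonucleotidase CD73 that makes adenosine outside the cell, went from 905, 915 and 982 to 3159, 2829 and 3051 with shGATA2a and 1940.1, 1522 and 2764 with shGATA2b (1.40, SE 0.09). With shGATA2b replicates 1 and 2 of NT5E lay below replicate 3, but all were above the Controls. TNFRSF10D, a decoy receptor for the death ligand TRAIL, went from 734, 635 and 690.2 to 2112, 1490.1 and 1589 and 2706, 1961 and 1562 (1.44, SE 0.08). MCAM, an adhesion molecule known from melanoma, went from 1403, 1498 and 1503 to 4288, 3604 and 3628 and 3136, 3126 and 4069 (1.3, SE 0.08), so that even the lowest hairpin library held over 2 times the highest Control. ITGB3, the beta 3 integrin, was steady in Controls at 238, 230.3 and 234 and held 755, 570.1 and 599.7 and 583, 517 and 645 with the hairpins (1.37, SE 0.08). TNC, a matrix glycoprotein, rose from 603 ± 82.8 to 1567 ± 356 (1.36).

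Among the others of the 15, SLC2A3, a glucose transporter, was at 207, 143 and 141 in Controls, 533, 370.0 and 322 with shGATA2a and 469, 350.0 and 509 with shGATA2b (1.37, SE 0.11). HKDC1, a hexokinase family enzyme, was at 76.97, 55.6 and 67.5, 357, 235 and 265 and 175, 105 and 274 (1.72, SE 0.14). For HKDC1 the hairpins also differed from each other (shGATA2b minus shGATA2a -0.71, adjusted p = 0.0243 by limma), as they did for NT5E (-0.58, adjusted p = 0.0069 by limma). SLC12A8, a membrane transporter, rose from 36.9 ± 9.04 to 106 ± 30.3 (1.48). HMGA2, an oncofetal chromatin protein, held 47.6, 34.2 and 51.9, 169, 132 and 177 and 122, 83.3 and 182 (1.64, SE 0.13), with the groups apart. KRT15, a keratin of basal epithelial cells, had the largest rise of the 15: 24.1, 29.2 and 30.3 in Controls became 179.8, 115 and 102 with shGATA2a and 124, 61.6 and 128 with shGATA2b (1.98, SE 0.18, adjusted p = 1.4e-08). S100A3, a small calcium-binding protein, rose from 23.5 ± 10.5 to 68.4 ± 28.5 (1.51), DKK3, a secreted relative of Wnt inhibitors, from 22.9 ± 4.75 to 63.8 ± 21.2 (1.39), and LZTFL1, which regulates traffic into cilia, from 109.8 ± 16.8 to 273 ± 36.7 (1.3). One more of the 15 is not described here. Each of these 14 described genes also passed without the replicate block and without any 1 library.

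Among abundant transcripts, with a mean of at least 5000, the largest rise was that of WDR1, which helps cofilin take actin filaments apart. It held 2789, 3250.2 and 3603 in Controls, 6729, 6041 and 6628 with shGATA2a and 6055, 6409 and 6980.1 with shGATA2b (1.02, SE 0.07), and the hairpin groups overlapped each other. SLC7A11, the cystine importer, held 5909.9, 5873 and 6458 in Controls and 11731 ± 1679 with hairpins (0.94, SE 0.08, 1 of 9 values not whole). CALM2 (calmodulin, 0.61), SCRN1 (0.61), the motor protein KIF5B (0.59) and the myosin light chain MYL12A (0.58) followed.

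The 15 largest falls under the same conditions included GATA2 and, with the reservation above, IGF2. C19orf21, an actin-bundling protein of the mitotic cortex also called MISP, held 147, 77.7 and 73.5 in Controls, 48.6, 24.5 and 16.2 with shGATA2a and 59.5, 33.8 and 23.3 with shGATA2b (-1.57, SE 0.16). FAM65A, a partner of small GTPases, went from 2111, 2025 and 1931 to 715, 839 and 803 and 617, 818 and 912 (-1.38, SE 0.08, adjusted p = 2.7e-11), so that the highest hairpin library held less than 0.5 of the lowest Control. SGK223, a pseudokinase of the cytoskeleton, went from 172 ± 17.4 to 75.4 ± 23.7 (-1.23). GBP2, an interferon-induced GTPase, held 151, 82.7 and 76.98 in Controls, 45.8, 21.6 and 37 and 75.3, 42.2 and 26.7 (-1.34, SE 0.18), and the highest hairpin library lay just below the lowest Control. SEMA6C, a semaphorin (-1.21), PANX2, a pannexin channel (-1.21), and SLC30A3, a zinc transporter (-1.21), fell by similar amounts. SRM, the spermidine synthase, held 836, 1012 and 822 in Controls, 281, 487 and 399 with shGATA2a and 299, 596 and 420.2 with shGATA2b (-1.14, SE 0.09).

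SEPN1, a selenoprotein of the endoplasmic reticulum, went from 2960.1, 2679 and 2718 to 1006, 1198 and 1276 with shGATA2a and 1069.6, 1754 and 1537 with shGATA2b (-1.12, SE 0.09). MYBL2, a transcription factor of proliferating cells, held 2466, 2919 and 2296 in Controls and 895, 1421 and 1100.0 and 994, 1464 and 1368 with the hairpins (-1.10, SE 0.08, adjusted p = 3.6e-10). BTBD2 (-1.10) and GNA11, a G protein alpha subunit (-1.08), complete the 15 with NEAT1. NEAT1, the long noncoding RNA that builds paraspeckles, was also the largest fall among abundant transcripts: 8309.7, 7524 and 12418 in Controls against 2877, 3963 and 5584 and 4429, 3966 and 5927 (-1.08, SE 0.08). The next falls among abundant transcripts whose groups did not overlap were MAP4, a microtubule-associated protein (-0.47), CYR61, a matricellular target of YAP (-0.43), RTN4 (-0.37), BASP1 (-0.31) and RPL4 (-0.30). The ribosomal protein genes RPLP0 and RPS16, given below, are as abundant and fell by more, with overlapping groups. Among low transcripts DUSP2, a phosphatase of ERK, had the largest fall of any gene named here: 125, 58.5 and 50.2 in Controls against 9.03, 4.32 and 8.48 and 7.44, 14.5 and 10.4 (-2.93, SE 0.29).

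The direction of change differed with the base composition of the transcript. Median GC content was 44.4% in genes that rose and 56.5% in genes that fell, against 48.9% over all genes tested (95.7% have a value). In the decile of genes with the lowest GC, 32.03% rose and 5.7% fell, and in the decile with the highest, 5.63% rose and 39.1% fell. Across 12792 genes, which are not independent replicates, the Spearman correlation of GC with the log2 fold change was -0.332. The libraries themselves differed in this way. The Spearman correlation of GC with a library's deviation from the mean of the 9 ran from -0.613 in shGATA2a replicate 3 to 0.488 in Control replicate 2, with Controls at 0.341, 0.488 and -0.082. Its part in the results was not tested. Counts are given with a correction that smooths each library's deviation on GC, an alternative added after the values were inspected. With it 2546 genes rose (19.9%) and 2416 fell (18.9%), 38.8% together, and 3887 of the 5033 calls with a GC value were shared in the same direction.

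**Figure D3:**
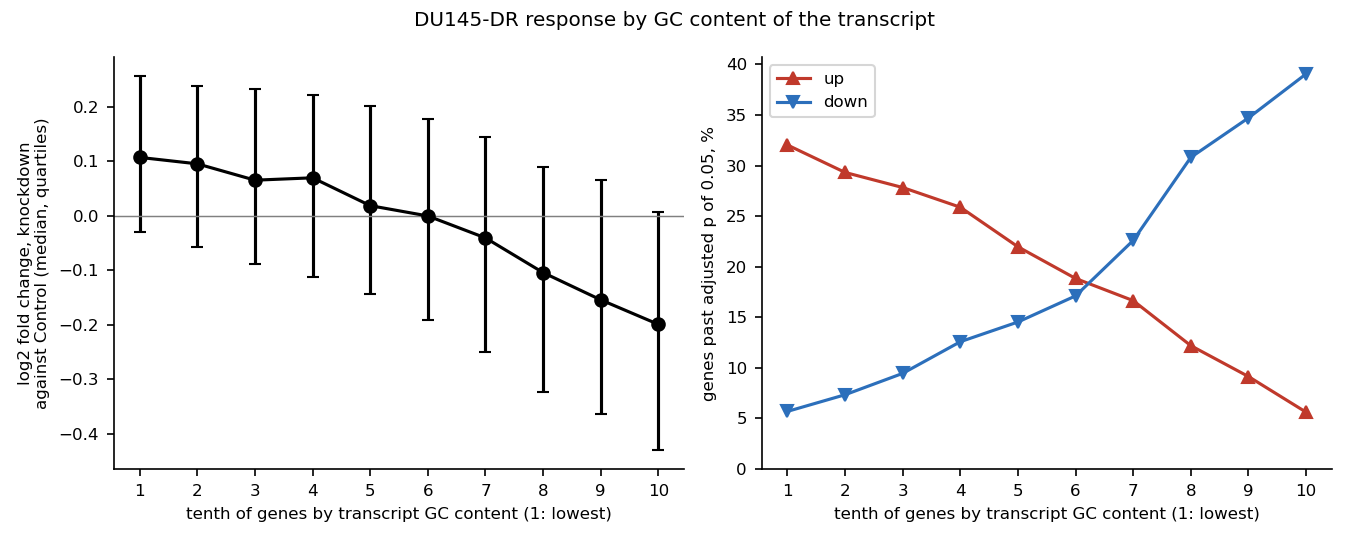
Left, median log2 fold change of knockdown against Control with quartiles as bars, and right, percent of genes past an adjusted p of 0.05, for deciles of the tested genes ordered by GC content of the transcript (horizontal axes, lowest first). The share that rose goes from 32.03% to 5.63% and the share that fell from 5.7% to 39.1% from the lowest to the highest decile.

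Gene lists of known processes, written with earlier results of these data known, are described by counts and medians and were not tested as sets. Over all genes the median log2 fold change was -0.002. Beside each list stand, where they bear on it, its counts with GC correction and without the replicate block, to be read against 19.9% up and 18.9% down and against 8.72% up and 7.98% down. The next 2 sentences cover the genes named in the lists of these Results and not the further lists at the end. ABCC10, ITGB4 and MVD did not pass with GC correction. ABCA3, ABCC10, ACLY, ALDOC, BMP1, CCNE2, CD68, CLDN1, COL3A1, COL6A2, EIF2AK3, ENO2, FGFR4, IFITM2, ITGB4, MVD, OAZ2, SCD5 and SYP passed with the replicate block and not without it. Cells export proteins through coated vesicles that leave the endoplasmic reticulum (COPII) or return to it (COPI). Of 30 tested genes of these coats and of translocation into the endoplasmic reticulum, 20 rose and 0 fell (66.7% against 19.6% of all genes), with a median of 0.23. The counts were 15 and 0 with GC correction and 11 and 0 without the replicate block. MCFD2, a cargo receptor of the early secretory pathway, stood out with 2124, 2162 and 2581 in Controls, 5661, 4637 and 5081 with shGATA2a and 6319, 5165 and 4892 with shGATA2b (1.21, SE 0.08, adjusted p = 6.3e-11). The coat subunits SEC24D (0.45), SEC23B (0.39) and COPZ1 (0.38) and the translocon protein SSR3 (0.39) rose by less.

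Of 29 genes of the unfolded protein response and its chaperones, which fold and clear proteins in the endoplasmic reticulum, 16 rose and 5 fell, with a median of 0.30 and the same counts with GC correction. HSP90B1, an abundant chaperone, held 12039, 12336 and 12406 in Controls against 17567 ± 1636 (n = 6, 0.51). The disulfide isomerase PDIA4 rose from 2939 ± 631 to 4907 ± 777 (0.75), and MANF (0.57) and SEL1L (0.55), the adaptor of the degradation ligase, rose too. SYVN1, the ligase that SEL1L binds, fell from 594 ± 39.1 to 364 ± 55.3 (-0.72). The sensors of the response, ERN1, ATF6 and the factor XBP1, did not pass, and the sensor EIF2AK3 fell by 0.22 (these 4 were picked out after their values were seen). Of 26 genes of the integrated stress response and amino acid supply, 9 rose and 2 fell. DDIT3, a stress transcription factor, rose from 148 ± 19.4 to 219 ± 21.6 (0.56) and VLDLR, a lipoprotein receptor, from 257 ± 9.55 to 495 ± 54.1 (0.93).

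NRF2 is the transcription factor of the response to oxidants, held down by KEAP1. Of 24 tested genes of this response, 15 rose and 3 fell (62.5% up), with a median of 0.25, and 14 and 2 with GC correction. Glutathione genes were among them: SLC7A11 is given above, and GCLM, a subunit of the enzyme that starts glutathione synthesis, rose from 1243 ± 253 to 2083 ± 236 (0.76, SE 0.08). PGD of the pentose phosphate pathway rose by 0.58. ABCC2, a conjugate and drug efflux pump, rose from 56.3 ± 6.94 to 119.6 ± 28.3 (1.05). HMOX1, a further target, fell by 0.67 and was singled out after its value was seen. Of 13 tested drug efflux pumps, 6 rose and 4 fell. ABCB6 (0.42), ABCC4 (0.43) and ABCA3 (0.41) rose, and ABCC10 fell by 0.29.

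Tubulins form microtubules, the target of taxane drugs, and stathmin disassembles them. Of 21 tested tubulins, stathmins, tubulin cofactors and microtubule-associated proteins, 12 rose and 2 fell (57.1% up), with a median of 0.23. With GC correction 13 of 20 rose and 2 fell. STMN1, stathmin, held 1958, 2406 and 2147 in Controls, 3848, 3966 and 3400.1 with shGATA2a and 4125, 3033 and 3029 with shGATA2b (0.71, SE 0.08). TUBB3, the class III beta tubulin, rose from 1267 ± 171 to 2081 ± 407 (0.70), and TUBA1A (0.52) and MAP1B (0.61) rose as well. MAP4, also in this list, went the other way, from 9747 ± 379 to 7097 ± 982 (-0.47), and the groups did not overlap. Tubulin genes share much of their sequence, so reads could be split between them. Of 12 oncofetal and chromatin HMG genes 7 rose and 1 fell (median 0.33), with HMGA2, HMGN1 (0.49), HMGB3 (0.40), HMGB2 (0.42) and the RNA-binding protein IGF2BP3 (0.42) up. Of 13 S100 proteins and annexins, which bind calcium and membranes, 10 rose and 0 fell (76.9% up, median 0.35). Without the replicate block the counts were 4 and 0. S100A2 rose from 145 ± 33.1 to 271 ± 87.2 (0.86), ANXA3 by 0.50 and S100A11 by 0.43.

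**Figure D4:**
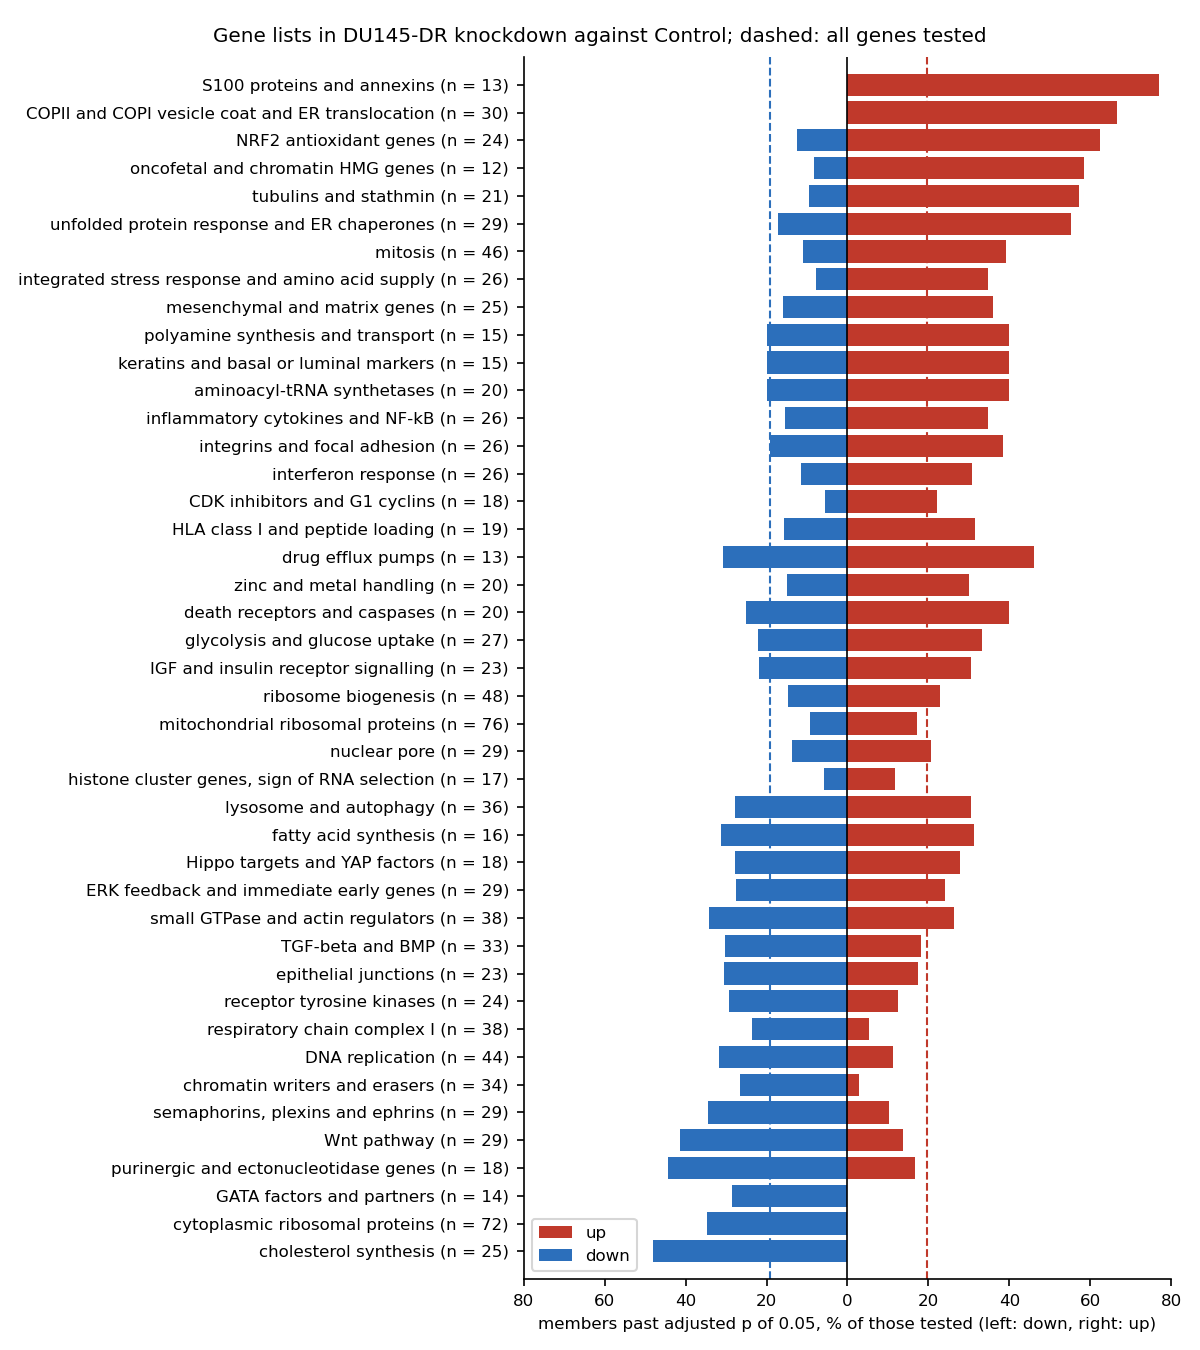
Share of the tested members of each gene list (n beside its name) that passed an adjusted p of 0.05 in the knockdown comparison, in percent, with genes that rose to the right and genes that fell to the left. Dashed lines mark 19.6% and 19.2%, the shares over all genes tested. S100 proteins and annexins (76.9% up) and vesicle coat genes (66.7% up) lie at the top and cholesterol synthesis (48% down) at the bottom.

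Genes of adhesion and of epithelial character moved both ways. Of 26 integrins and focal adhesion genes, 10 rose and 5 fell. Besides ITGB3, the alpha subunit ITGA3 rose from 1847 ± 446 to 2881 ± 716 (0.64) with overlapping groups, PARVA rose by 0.67 and TNS1 by 1.04, while ZYX, zyxin of focal adhesions, fell from 1886 ± 176 to 1146 ± 281 (-0.75). Of 15 keratins and basal or luminal markers, 6 rose and 3 fell. ITGA6, the integrin of hemidesmosomes, held 2435, 2216 and 2502 in Controls, 4964, 4155 and 4210.2 with shGATA2a and 4699.7, 3684 and 3959 with shGATA2b (0.84, SE 0.07). COL17A1, a hemidesmosome collagen, rose from 62.7 ± 3.70 to 154 ± 31.98 (1.25) and LAMB3, a laminin chain, by 0.62. KRT80, a keratin, fell from 2254 ± 125 to 1757 ± 246 (-0.37) with overlapping groups, and CDH3, P-cadherin, which was low (-1.22), and ITGB4, the partner of ITGA6 (-0.30), are the others that fell, both named after their values were seen. Of 23 epithelial junction genes, 4 rose and 7 fell. JUP, plakoglobin, was low and fell from 56.01 ± 16.2 to 19.7 ± 7.39 (-1.50), F11R fell by 0.52, and CLDN1 (0.41), CLDN4 (0.79) and DSG2 (0.32) rose. Of 25 mesenchymal and matrix genes, 9 rose and 4 fell, with TNC, the transcription factor ZEB2 (from 159 ± 21.2 to 294 ± 39.9, 0.88), COL13A1 (0.74) and the protease PLAU (0.71) up and COL6A2 (-0.44) down.

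Small GTPases of the Rac kind shape the actin cytoskeleton. Of 38 tested regulators of small GTPases and actin, 10 rose and 13 fell, and 10 and 12 with GC correction. Beside C19orf21, FAM65A and SGK223, MYL9, a myosin regulatory light chain, fell from 1946 ± 227 to 1221 ± 231 (-0.69, SE 0.07), and the kinase PAK4 went from 1798 ± 85.2 to 938 ± 86.5 (-0.94) with 2 of its 9 values not whole. Of 29 semaphorins, plexins and ephrins, which guide cell movement, 3 rose and 10 fell (median -0.11, 5 and 8 with GC correction). SEMA6B fell from 754 ± 189.7 to 407 ± 141 (-0.91), SEMA4G by 0.59 and SEMA4D by 0.47, while the semaphorin receptor NRP2 rose from 166 ± 32.8 to 261 ± 36.8 (0.66).

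Among 24 receptor tyrosine kinases tested, 3 rose and 7 fell, and 5 and 3 with GC correction, so the balance of this list depended on that step. AXL, an abundant receptor linked to drug resistance, held 11857, 12466 and 14856 in Controls, 19356, 16844 and 19441 with shGATA2a and 15309, 17994 and 20522 with shGATA2b (0.48, SE 0.07). ERBB2 fell from 1077 ± 47.03 to 823 ± 115 (-0.40) and FGFR4 from 360.4 ± 53.1 to 229 ± 74.6 (-0.71). Downstream, of 29 ERK feedback and immediate early genes, 7 rose and 8 fell. DUSP4 (0.59), SPRED1 (0.51) and SPRED3 (0.76), brakes of ERK signalling, rose, and the brake DUSP1 fell from 2891 ± 263 to 1987 ± 201 (-0.54).

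Of 33 genes of the TGF-beta and BMP pathways, 6 rose and 10 fell. ID1 and ID3, targets of BMP signals that block differentiation factors, fell together: ID1 held 1564, 1600.5 and 1167 in Controls, 705, 805 and 769 with shGATA2a and 770.1, 873 and 756 with shGATA2b (-0.88, SE 0.08), and ID3 went from 2898 ± 249 to 1804 ± 206 (-0.69). TGFB1, a ligand, fell by 0.67, and BMP1, a procollagen protease, rose by 0.51. Of 29 Wnt pathway genes, 4 rose and 12 fell (41.4% down, median -0.16), and 6 and 13 with GC correction. TCF7L1, a nuclear effector of the pathway, fell from 187 ± 7.07 to 111 ± 27.1 (-0.77) and SFRP1, a secreted inhibitor, from 175 ± 8.17 to 113 ± 16.1 (-0.63). The ligands WNT7A (5.36 ± 2.24 to 21.1 ± 6.85, 1.81) and WNT3 (29.7 ± 9.60 to 59.3 ± 13.3, 0.99) rose from low levels. Of 18 Hippo pathway genes, 5 rose and 5 fell. ANKRD1, a target of YAP like CYR61, fell by 0.52, as did the DNA-binding partner TEAD3 (-0.71), while CRIM1 (0.49) and PTPN14, an inhibitor of YAP (0.62), rose.

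Of 18 purinergic and ectonucleotidase genes, 3 rose and 8 fell (44.4% down, median -0.18). NT5E, which makes adenosine, rose, and both equilibrative nucleoside transporters of the list fell: SLC29A1 from 944 ± 59.8 to 645 ± 93.96 (-0.56, SE 0.08) and SLC29A2 from 307 ± 29 to 205 ± 35.6 (-0.59, SE 0.10). Among 20 death receptors and caspases, 8 rose and 5 fell, and 5 and 4 with GC correction. Only 1 and 2 passed without the replicate block. The decoy TNFRSF10D rose, while TNFRSF10B, a death-inducing TRAIL receptor, held 2856, 2713 and 2927 in Controls, 1863, 2165 and 2252 with shGATA2a and 1684, 1896 and 2399 with shGATA2b (-0.48, SE 0.07). The groups of TNFRSF10B did not overlap. TNFRSF21 fell by 0.48.

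Of 26 inflammatory cytokine and NF-kB genes, 9 rose and 4 fell. IL11, a cytokine of the IL-6 family, held 431, 452 and 455 in Controls, 935, 989 and 943 with shGATA2a and 1030.5, 712 and 940.5 with shGATA2b (1.04, SE 0.09). IL8, a neutrophil chemokine, rose from 571 ± 79.6 to 1145 ± 351 (0.94) with overlapping groups, and the chemokine CCL20 fell by 0.70. Of 26 interferon response genes, 8 rose and 3 fell. IFITM2, an antiviral membrane protein, rose by 1.03, although reads of IFITM2 may be shared with its close relative IFITM3, and GBP2 and IFI35 (-0.74) fell. Of 19 HLA class I and peptide loading genes, 6 rose and 3 fell. The aminopeptidases that trim peptides rose, ERAP2 from 262 ± 16.6 to 462 ± 54.1 (0.81) and ERAP1 by 0.47, as did the transporter TAP1 (0.37), and the regulator NLRC5 fell by 0.53.

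Mitosis and DNA replication genes differed in their counts. Of 46 mitosis genes, 18 rose and 5 fell (39.1% up, median 0.11), and 13 and 8 with GC correction. The spindle genes HMMR (823 ± 66.5 to 1298 ± 174, 0.65), BUB3 (0.52) and BUB1 (0.46) rose. The transcription factor MYBL2 fell, as did FOXM1 with the reservation above about its Control values. Of 44 DNA replication genes, 5 rose and 14 fell (31.8% down, median -0.05), and 4 and 9 with GC correction. Without the replicate block only 2 and 2 passed. CHAF1B, a histone chaperone, fell by 0.41 and GINS2, a helicase subunit, by 0.31, whereas CDC6 (0.29), ORC6 (0.33) and CCNE2 (0.36) rose. Among 18 CDK inhibitors and G1 cyclins, 4 rose and 1 fell, and 8 and 1 with GC correction, with CCND1, cyclin D1, up from 5994 ± 432 to 8119 ± 1111 (0.43).

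Of 25 tested cholesterol synthesis genes, 0 rose and 12 fell (48% against 19.2% of all genes), with a median of -0.17. The counts were 1 and 12 with GC correction and 0 and 3 without the replicate block. SREBF2, the transcription factor of the pathway, held 3466, 3742 and 4062 in Controls, 1889, 2301 and 2487 with shGATA2a and 1926, 3386 and 3158 with shGATA2b (-0.61, SE 0.08). DHCR7 (-0.47), a late enzyme, and the early enzymes MVK (-0.63) and MVD (-0.36) fell. Of 16 fatty acid synthesis genes, 5 rose and 5 fell: ACSS2 (-0.73), FASN (-0.50), FADS1 (-0.40) and SCD5 (-0.37) were down and ACLY (0.29) up. Of 72 cytoplasmic ribosomal proteins, 0 rose and 25 fell (34.7% down, median -0.13), with 1 and 23 after GC correction but 0 and 4 without the replicate block. RPLP0, of the ribosomal stalk, went from 12067 ± 1608 to 8304 ± 1181 (-0.54) and RPS16 from 6927 ± 1623 to 4597 ± 469 (-0.57), with overlapping groups in each. Many of these genes have processed copies elsewhere in the genome, so their counts are uncertain.

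Of 27 genes of glycolysis and glucose uptake, 9 rose and 6 fell. Genes of glucose uptake and phosphorylation were among those that rose: SLC2A3 and HKDC1 are given above, and HK2, the inducible hexokinase, held 289, 352 and 452 in Controls, 623, 570.1 and 631 with shGATA2a and 482, 564.9 and 639 with shGATA2b (0.70, SE 0.09). ALDOC, an aldolase, fell from 227 ± 95.97 to 114 ± 55.8 (-1.05) with overlapping groups, and PDK3 fell by 0.38. Of 15 polyamine genes, 6 rose and 3 fell. SRM, which makes spermidine, fell by 1.14, and SMS, which turns spermidine into spermine, rose from 2253 ± 136 to 3216 ± 443 (0.50). AZIN1 (0.38), OAZ2 (0.39) and MTAP (0.56) rose.

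GATA factors bind the letters AGATAA and TGATAA. RefSeq promoters (GRCh38.p14) were searched for these letters on both strands, in the 250 bases before the start of transcription. Only the first promoter listed for each gene was used, so other start sites of a gene were not searched. The files use hg19 and give no coordinates, so promoters were matched by symbol. Of 10508 tested genes with a promoter in the table, 737 (7.01%) held a match. The share was 7.76% of genes that rose, 5.5% of genes that fell, 15.2% (9 of 59) of genes that rose at least 2-fold and 6.52% (3 of 46) of genes that fell at least 2-fold. None of the 18 genes with a promoter among the 15 largest rises and 15 largest falls held one. Promoter GC content differed alongside, with a median of 58% in genes that rose at least 2-fold and 65.2% in all. Of 51 genes with a promoter, a mean of at least 50 and a change of at least 2-fold, 4 held a match. Their windows are shown because they hold the only matches in this group, with the match in capitals (TTATCT is AGATAA on the other strand), 30 bases on either side, and read along the strand of the gene.
MCFD2, chr2:46916187-46916252, minus strand: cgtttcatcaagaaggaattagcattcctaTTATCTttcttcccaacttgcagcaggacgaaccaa
COL17A1, chr10:104085951-104086016, minus strand: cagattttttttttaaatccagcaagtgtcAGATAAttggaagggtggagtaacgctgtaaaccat
CAB39L, chr13:49401630-49401695, minus strand: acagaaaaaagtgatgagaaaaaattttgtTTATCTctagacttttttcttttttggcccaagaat
HECTD3, chr1:45011508-45011573, minus strand: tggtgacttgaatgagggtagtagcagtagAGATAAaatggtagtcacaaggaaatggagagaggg
HECTD3, chr1:45011412-45011477, minus strand: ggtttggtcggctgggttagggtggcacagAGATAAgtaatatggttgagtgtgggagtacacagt
MCFD2 and COL17A1 rose as given above, CAB39L, a scaffold of the kinase LKB1, rose from 62.6 ± 8.73 to 139 ± 24.99 (1.13), and HECTD3, a ubiquitin ligase, fell from 351 ± 34.8 to 171 ± 28.5 (-1.05). The matches begin 106 to 219 bases before the start. A match describes letters only.

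The hairpins were compared with each other. At an adjusted p of 0.05, 290 genes (2.17%) differed, 166 (1.24%) higher and 124 (0.928%) lower with shGATA2b than with shGATA2a. GATA2 was not among them (0.24, SE 0.12, adjusted p = 0.321). The 5 genes with the largest difference downward were ZNF709, CCL20, ZNF699, ZNF14 and ZNF607, of which 4 encode zinc finger proteins. ZNF699 held 200.3, 149 and 163 in Controls, 751, 446 and 462 with shGATA2a and 451, 169 and 393 with shGATA2b (shGATA2b minus shGATA2a -0.79, SE 0.15, adjusted p = 0.00891). ZNF607 held 516, 401 and 378, 1444, 849 and 852 and 726, 424 and 682 (-0.77, SE 0.11), so both genes were highest with shGATA2a. CCL20 was lower with shGATA2b (24.2, 32.6 and 40.6) than with shGATA2a (56.9, 59.03 and 63.2) or in Controls (75.02, 75.6 and 64.01). In the other direction, LTBP3, a latent TGF-beta binding protein, was at 4724, 3329 and 2901 in Controls, 1923, 1343 and 1260.3 with shGATA2a and 3172, 3180.4 and 1633 with shGATA2b (0.78, SE 0.11). TMEM158 (0.89), ZNF703 (0.84), TOX2 (0.77) and NUDT4 (0.75, a gene with a near-identical copy) were also higher with shGATA2b.

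The hairpin difference was the least stable of the comparisons. It gave 0 genes without the replicate block (787 at an unadjusted p of 0.05), 225 by edgeR and 216 by DESeq2. It gave 0 genes without shGATA2a replicate 2 (957 unadjusted), 2 without shGATA2b replicate 2 and 0 with GC correction (1878 unadjusted). GC content moved with it: the median was 60.7% in genes higher with shGATA2b and 41.1% in genes lower, and the Spearman correlation across genes was 0.388. Of 467 tested genes with a ZNF symbol, whose median GC was 43.3%, 26 were lower and 4 higher with shGATA2b, and 0 were lower with GC correction. This family was picked out after the values were seen.

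The response of DU145-DR was set against the mean response of 22Rv1-DR and ARCaPM-DR in a fit of all 27 libraries. Each library counted alike in it, including ARCaPM-DR shGATA2a replicate 3, which had the lowest depth, with 3.44 M reads. In that library 1 read is a value of 3.89. Of 15295 genes tested, 1296 (8.47%) had a higher and 1266 (8.28%) a lower log2 fold change in DU145-DR, 16.8% together. Against 22Rv1-DR alone 1571 genes differed and against ARCaPM-DR alone 3138. KRT15 rose in DU145-DR (1.98) and was -0.35 in 22Rv1-DR and -0.86 in ARCaPM-DR (difference 2.59, SE 0.33, adjusted p = 4.2e-05). The value in 22Rv1-DR rests on few reads, with 3.64 ± 2.14 in Controls and 3.13 ± 2.46 with hairpins. ITGB3 started from like levels in the Controls of DU145-DR (234 ± 3.91) and ARCaPM-DR (234 ± 78.9), and went to 612 ± 81.8 in the former and 94.9 ± 34.02 in the latter (difference 2.22, SE 0.23). ITGB3 was low in 22Rv1-DR, at 11.2 ± 0.66 in Controls. HK2 rose from 365 ± 82.4 to 585 ± 59.6 in DU145-DR, whereas in ARCaPM-DR its level was 2761 ± 1041 in Controls and 765 ± 298 with hairpins (difference from the other lines 1.78, SE 0.11). In 22Rv1-DR HK2 was at 16847 ± 9387 in Controls and 13070 ± 5059 with hairpins, with overlapping groups. The log2 fold change of HK2 was -0.31 in 22Rv1-DR and -1.86 in ARCaPM-DR. NRP2 went from 166 ± 32.8 to 261 ± 36.8 in DU145-DR and from 726 ± 287 to 253 ± 84.1 in ARCaPM-DR (1.79, SE 0.42). In 22Rv1-DR NRP2 was low, at 5.95 ± 1.03 and 3.64 ± 1.97.

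Several of the remaining genes chosen for this difference were hardly present in another line, where a fold change rests on few reads. S100A3 and CCL20 were listed at 0 in all 9 libraries of 22Rv1-DR. In ARCaPM-DR S100A3 was at 3.69 ± 0.96 in Controls and 1.44 ± 1.52 with hairpins, and CCL20 at 1.89 ± 2.25 and 7.59 ± 4.57. Their differences are therefore set largely by DU145-DR and are no measured difference in response. GBP2 and PLEKHB1 were listed at 0 in the 3 ARCaPM-DR Controls, and FREM2, a matrix protein, was at 0.21 ± 0.37 there. In DU145-DR these genes had ample reads: FREM2 held 110.2, 113 and 95.1 in Controls and 70.9 ± 14.8 with hairpins, PLEKHB1 222, 264 and 157 and 112 ± 19.7, and HLA-DMA, which loads HLA class II molecules, 136, 167 and 88.2 and 62.3 ± 11.8. HLA-DMA was low in both other lines. In 22Rv1-DR it was at 1.49 ± 0.57 in Controls and 2.49 ± 1.74 with hairpins, and in ARCaPM-DR at 7.94 ± 3.57 and 15.4 ± 7.21. Against 22Rv1-DR alone 6 of the 10 genes chosen for this difference did not pass, and against ARCaPM-DR alone all 10 did.

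**Figure D5:**
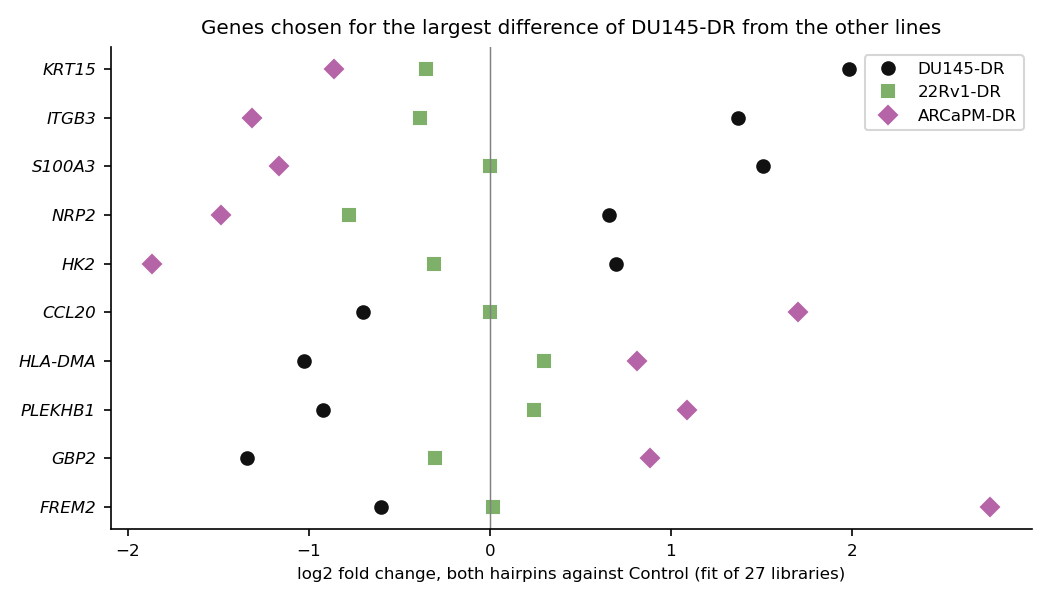
Log2 fold change of both hairpins against Control (horizontal axis) in DU145-DR (circles), 22Rv1-DR (squares) and ARCaPM-DR (diamonds) for the 10 genes with the largest difference of DU145-DR from the other lines, from the fit of 27 libraries. In DU145-DR KRT15 lies at 1.98 and ITGB3 at 1.37 while both are below 0 in the other lines. S100A3 and CCL20 lie at 0 in 22Rv1-DR, where they were not detected.

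Markers of other cell types were summed in each library. Of 9 endothelial markers 5, among them PECAM1, CDH5 and VWF, were below 10 in every library, and the summed level of the list was 54.5 to 70.6 in Controls, 70.1 to 86.8 with shGATA2a and 67.9 to 79.7 with shGATA2b. Of the 4 tested, 2 rose: KDR (5.99 ± 1.48 to 18.1 ± 9.28, 1.34) and ROBO4 (4.48 ± 1.06 to 14.2 ± 3.34, 1.46). Of 8 fibroblast markers COL1A2 and DCN were listed at 0 in all 9 libraries. The sum of that list was 191.1 to 233.5 in Controls, 115.6 to 128.5 with shGATA2a and 102.3 to 189 with shGATA2b, and COL1A1 (-0.74) and COL3A1 (-0.68) fell. Of 8 blood markers PTPRC and CD3E were listed at 0 in all 9 libraries and 7 were below 10 in each. The sum was 408.3 to 611.9 in Controls, 306.8 to 447.9 with shGATA2a and 383.9 to 448.3 with shGATA2b. CD68, a lysosomal protein of macrophages that other cells also make, was the 1 tested and fell by 0.38. Of 8 neuroendocrine markers 2, INSM1 among them, were listed at 0 in all 9 libraries, ENO2 rose by 0.28 and SYP fell by 0.73. Their sum was 1317 to 1432 in Controls, 1296 to 1328 with shGATA2a and 1285 to 1610 with shGATA2b. Their part in the other results was not tested.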

How the data were processed

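The RNeasy Mini kit was used for RNA and a standard Illumina protocol for libraries, per the labels' protocols. TopHat2 2.0.9 and Cufflinks 1.3.0 were used with hg19 (GRCh37), per the submitters' processing notes. The sources used here name neither the counting program nor the use of strand. The authors deposited 1 table of 23228 genes by 27 libraries of scaled signal values, found from the values to be read counts divided by a size factor per library. Whole reads were recovered by dividing by the value of 1 read.

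The signal was tested with limma 3.58.1 (R 4.3.3, mean-variance trend) on log2(value + 1), over genes that reached 10 in 3 or more libraries, with group and replicate number as terms. Fold changes on this scale come out too small for low genes. Knockdown is the mean of both hairpin groups minus Control. Adjusted p-values are Benjamini-Hochberg over all genes tested, with a threshold of 0.05, and "rose" and "fell" mean past it. In DU145-DR 13362 genes were tested, and 15295 in the fit of all 27 libraries. Mean ± SD is over 3 libraries, or 6 for both hairpins together. The replicate numbers pair the libraries by the data only: same-numbered libraries correlated in all 9 pairs (lowest 0.275, highest for other numbers 0.0597), and 9 of 9 correlated best with their own number. Replicates differed by more than counting noise, so none was counted as a copy.

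The choice of these libraries, the 49 gene lists and the rule for named genes were chosen with earlier results of these data known. The rule took GATA2, GATA3, GATA6, IGF2, IGF1R, INSR, FOXM1 and POM121, and the 15 genes up and 15 down with the largest fold, a mean of at least 50 and groups that do not overlap. It also took the 6 up and 6 down of those with a mean of at least 5000, at most 5 genes per list by smallest adjusted p, and 5 per direction for the hairpin and line differences. CAB39L, HECTD3, EIF2AK3, ERN1, ATF6, XBP1, HMOX1, WIPI1, SLC39A4, CDH3 and ITGB4 were chosen after their values were seen. Alternatives were no block, a pseudocount of 0.1, other filters and scalings, edgeR 4.0.16 and DESeq2 1.42.0 on recovered reads, and leaving out each library. Added after the values were seen were a GC correction and the removal of multiples of 100 from some of the values that were not whole. Transcript GC and length came from the longest GENCODE transcript of each gene, protein-coding ones first (95.73% of genes matched by symbol or synonym). Promoters were matched by symbol. Some genes are not reported here.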

Additional observations from a re-analysis of the deposited data

Results flagged for a closer look

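The response of 2562 genes differed between DU145-DR and the mean of 22Rv1-DR and ARCaPM-DR by limma's test of that difference. Values are given for 25 of them: GATA6, genes with the largest rise or fall in DU145-DR, and genes picked for the difference. Other named genes also differed. All differences below are in log2 fold change, DU145-DR minus the mean of the other lines. Among genes chosen for the largest rise in DU145-DR, the difference was 2.593 for KRT15, 2.219 for ITGB3, 2.09 for S100A3, 1.372 for MCAM, 1.358 for SLC12A8, 1.308 for TNFRSF10D, 0.8173 for NT5E and 0.7911 for LZTFL1. Among those chosen for the largest fall, it was -1.635 for GBP2, -1.193 for NEAT1, -1.141 for SGK223, -1.014 for C19orf21, -0.9846 for SEPN1, -0.9657 for FAM65A, -0.8969 for SEMA6C, -0.7447 for SRM, -0.7372 for BTBD2 and -0.5258 for PANX2. Both sets were picked for their size in DU145-DR, which favours a difference in that direction. Of the genes picked for the difference itself, NRP2 had 1.789, HK2 1.783, FREM2 -1.99, PLEKHB1 -1.585, HLA-DMA -1.582 and CCL20 -1.55. GATA6, a relative of GATA2, had a difference of 0.572 although its change within DU145-DR alone did not pass. S100A3 and CCL20 were listed at 0 in every 22Rv1-DR library and were low in ARCaPM-DR, with Control means of 3.69 and 1.89, so their values are set largely by DU145-DR. HLA-DMA was low in both lines too, with Control means of 1.49 in 22Rv1-DR and 7.94 in ARCaPM-DR.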

How the results depend on the processing

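The pairing of replicate numbers changed most counts. Without the replicate block the knockdown comparison gave 2231 genes in place of 5184, shGATA2a 2146 in place of 5089, shGATA2b 777 in place of 3515, the hairpin difference 0 in place of 290 (787 at an unadjusted p of 0.05; 225 by edgeR and 216 by DESeq2, both with the block) and the line difference 571 in place of 2562. The hairpin difference also fell to 111 with no filter and to 0 with GC correction (1878 unadjusted). The line difference was 1571 against 22Rv1-DR alone. Leaving out each library in turn gave 2670 (without Control replicate 1) to 5451 knockdown genes, 3007 (without Control replicate 1) to 5551 for shGATA2a, 1557 (without Control replicate 1) to 3556 for shGATA2b, and 0 (without shGATA2a replicate 2, 957 unadjusted) to 653 (without shGATA2b replicate 1) for the hairpin difference. Without shGATA2a replicate 2 the count for shGATA2a was 3233. The hairpin difference was 2 without shGATA2b replicate 2, 153 without shGATA2a replicate 1 and 586 without shGATA2b replicate 3. The change of GATA2 ran from -2.01 to -1.60 and passed each time. INSR, with 0.01 and never past the threshold, changed sign without shGATA2a replicate 1 (-0.049), Control replicate 2 (-0.033), shGATA2b replicate 2 (-0.047) or shGATA2b replicate 3 (-0.017), over a range of -0.049 to 0.097, and with GC correction (-0.0063). The causes were not tested.

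Of 240 named genes of the knockdown comparison, 240 kept direction and side of the threshold with edgeR, median of ratios scaling and a pseudocount of 0.1, 239 with quantile normalisation, 236 with DESeq2, 227 with GC correction and 195 without the replicate block. An alternative on the GATA2 libraries with whole values was not run because no Control value of GATA2 is whole. Genes near the filter of 10 have few reads, so small changes there were not detectable at this depth.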

Other observations

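Further gene lists are given by their counts in the knockdown comparison, with the replicate block unless said otherwise. Of 36 lysosome and autophagy genes, 11 rose and 10 fell. The protease CTSL1 rose from 2833 ± 105 to 4967 ± 629.7 (0.80) and WIPI1, which acts in autophagosome formation, from 77.98 ± 18.1 to 138 ± 20.5 (0.83). CTSA fell by 0.66 and ATG9A, a membrane protein of autophagy, by 0.62. Of 34 chromatin writers and erasers, 1 rose and 9 fell. The demethylase KDM6B fell from 651 ± 74.7 to 409.6 ± 76.2 (-0.68), the methyltransferase DOT1L by 0.60, the deacetylases HDAC5 by 0.69 and HDAC7 by 0.64, and the acetyltransferase CREBBP by 0.60, while DNMT3B is the gene that rose. Without the replicate block 0 rose and 5 fell, so DNMT3B did not pass there.

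Of 20 zinc and metal handling genes, 6 rose and 3 fell, with the importer SLC39A10 (0.50) up and the importers SLC39A4 (-0.84) and SLC39A1 (-0.55) down. The counts for zinc and metal handling were 2 and 2 without the replicate block. Of 29 nuclear pore genes, 6 rose and 4 fell, with NUP50 (0.58) and NUPL1 (0.52) up. Of 38 genes of respiratory chain complex I, 2 rose and 9 fell with the replicate block and 0 and 1 without it. Of 76 mitochondrial ribosomal proteins, 13 rose and 7 fell, with MRPS18A (-0.75) the largest fall among them. Of 20 aminoacyl-tRNA synthetases, 8 rose and 4 fell, and of 48 ribosome biogenesis genes, 11 rose and 7 fell, with DDX18 (0.56) up. Of 17 histone cluster genes, whose transcripts mostly lack a poly(A) tail, 2 rose and 1 fell. Of the 8 tested genes of the line identity list 1 passed.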
